A study of Columba livia with 4 samples.

Results

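SOX10 peaks in or beside chromatin marked by trimethylated lysine 27 of histone H3 (H3K27me3) numbered 768 of the 6579 SOX10 peaks mapped in primary pigeon melanocytes. They were selected from the overlap and distance between peak lists. A peak qualified when it shared a base with an H3K27me3 peak, or when it shared no base with acetylated lysine 27 (H3K27ac), had its summit over 2 kb from H3K27ac and had its summit within 5 kb of H3K27me3. Of the 768, 171 overlapped H3K27me3 and 597 lay beside it. Position relative to the marks is therefore a description of how the peaks were chosen, whereas SOX10 strength was not used in the choice.

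H3K27me3 is deposited by Polycomb repressive complex 2 and covers genes that a cell type keeps silent, often as long domains over developmental regulators. H3K27ac occupies the same residue and marks active promoters and enhancers, so a nucleosome tail cannot carry both on one lysine. SOX10 is an HMG-box transcription factor of the neural crest that drives pigment cell genes, and many of its known targets in melanocytes are served by acetylated enhancers.

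The study profiled wild-type primary melanocytes of Columba livia with 1 library for each of SOX10, H3K27ac, H3K27me3 and an input of sheared chromatin. All cells grew in Ham's F10 with fetal bovine serum (10%), Nu-serum (5%), the phorbol ester TPA (85 nM), cholera toxin (40 ng/mL) and endothelin-3 (10 ng/mL), and how many birds gave them is not given. The 3 antibody libraries have peak lists of 6579 SOX10, 34223 H3K27ac and 36792 H3K27me3 peaks, and the input library was not analysed here. With 1 library per target there are no replicates and no test across samples. Intervals are exact 95% binomial or Poisson intervals. They cover only counting error and treat nearby peaks as independent, which they may not be. The melanocyte label could not be checked against marker genes, since no annotation of these scaffolds was used here, and for the same reason no gene or sequence is given for a site.

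For each SOX10 peak, the authors' caller gave the fold enrichment over local background at the summit. That fold and its p-value together fix the number of fragments at the summit and the fragments given by local background, and both were recovered for all 6579 peaks. The median summit held 33 fragments (interquartile range 26 to 41), and the range was 13 to 330. The counting interval of a single summit with 33 fragments is 22.7 to 46.3. H3K27me3 peaks separated by gaps of up to 5 kb were merged, which gave 15208 domains. Fold is a ratio throughout, and background and summit values are numbers of fragments.

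The 768 sites fell into 4 placements. H3K27me3 alone held 83 and both marks held 88. Of the 597 sites beside the mark, 227 had their summit inside a merged domain, in a gap between its H3K27me3 peaks, and 370 lay on the flank of a domain, beyond its ends. Sites that overlapped the mark were the minority, and so were the bases under it. H3K27me3 peaks cover 37.7 Mb. Bases outside them, within 5 kb of one and over 2 kb from H3K27ac, come to 139.0 Mb. The placement counts alone were therefore not read as a preference. The H3K27me3 peak nearest to a site beside the mark had a −log10 q of at least 3 in 117 of 597 cases (19.6%, 16.5 to 23.0%), against 27.6% of all H3K27me3 peaks. At sites that overlapped the mark, the overlapping H3K27me3 peak of highest fold reached this value more often. It did so in 59 of 83 for H3K27me3 alone (71.1%, 60.1 to 80.5%) and 63 of 88 for both marks (71.6%, 61.0 to 80.7%). The 27.6% counts each peak once, whereas a wider peak offers more bases to overlap. With only H3K27me3 peaks of that strength, 328 SOX10 peaks qualified.

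The limits cut through a continuous range. The farthest flank sites that qualified, at 31371127 to 31371277 of AKCR02000005.1 and 95354 to 95490 of AKCR02000272.1, lay 4979 and 4962 bp from H3K27me3 and had folds of 3.43 and 4.01. The nearest that did not, at 1116106 to 1116280 of AKCR02000047.1 and 7348076 to 7348503 of AKCR02000020.1, lay 5016 and 5028 bp away with folds of 3.43 and 5.65. At the other limit, sites 2041 and 2087 bp from H3K27ac were kept, with folds of 3.97 and 2.70, and sites 1933 and 1857 bp from it were left out, with folds of 2.004 and 2.91.

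Domain length separated the placements. The domain at or nearest to a site had a median length of 17445 bp for H3K27me3 alone, 16811 bp for gaps, 3740 bp for both marks and 1916.5 bp for flanks, against 891 bp over all 15208 domains. Domains of at least 20 kb held 37 of the 83 sites in H3K27me3 alone (44.6%, 33.7 to 55.9%), 102 of the 227 in gaps (44.9%, 38.3 to 51.7%), 20 of the 88 in both marks (22.7%, 14.5 to 32.9%) and 18 of the 370 on flanks (4.86%, 2.91 to 7.58%). Such domains are 648 of 15208 (4.26%) and hold 40.9% of H3K27me3 bases. Longer domains offer more bases, and a gap exists only where at least 2 peaks were merged, so no preference for long domains was read from these lengths.

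**Figure D1:**
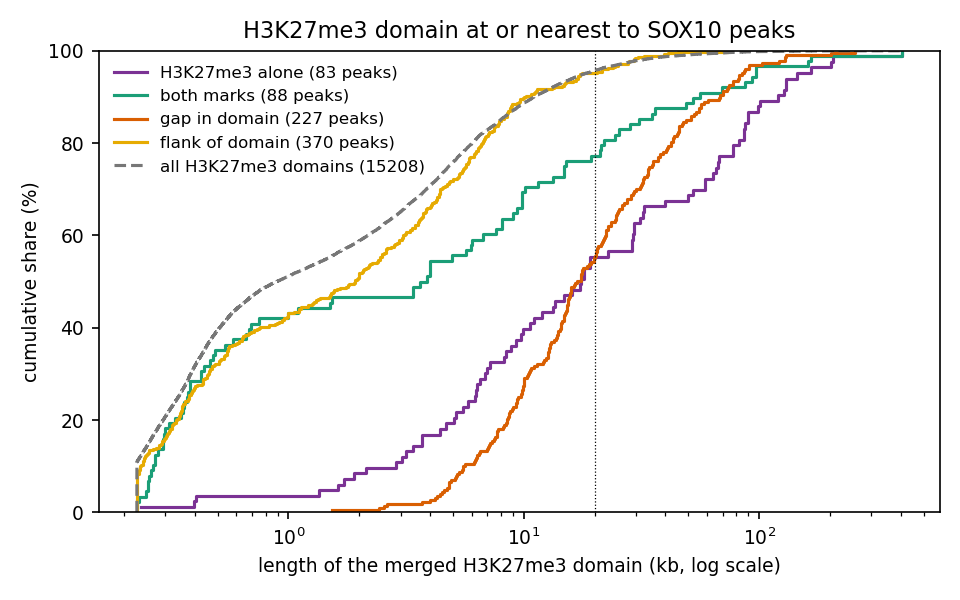
Cumulative share of SOX10 peaks (vertical axis, %) against the length of the merged H3K27me3 domain they lay in or nearest to (horizontal axis, kb, log scale), by placement, with all 15208 domains dashed and 20 kb dotted. The curves for H3K27me3 alone and for gaps lie far to the right, with medians of 17445 and 16811 bp. Among the placements the flank curve lies nearest to that of all domains, with a median of 1916.5 against 891 bp.

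Short domains were more frequent at sites in both marks than at sites in H3K27me3 alone. Of these 88 sites, 40 (45.5%, 34.8 to 56.4%) touched a domain made of a single H3K27me3 peak and 31 (35.2%, 25.3 to 46.1%) touched a domain under 500 bp. In H3K27me3 alone the same counts were 6 (7.23%, 2.70 to 15.1%) and 3 (3.61%, 0.752 to 10.2%) of 83. On flanks, 174 of 370 (47.0%, 41.8 to 52.3%) lay beside a domain of a single peak. Of all 15208 domains, 8588 (56.5%) were of a single peak, a higher share than in both marks or on flanks. Over all members, 177 of 768 (23.0%, 20.1 to 26.2%) lay in or beside a domain of at least 20 kb. This share follows the merging distance, since gaps of up to 1 kb gave 2.86% and gaps of up to 12 kb gave 46.5%.

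Inside or edge position also differed by placement. In H3K27me3 alone, 62 of 83 summits (74.7%, 64.0 to 83.6%) lay inside the domain and over 1 kb from its nearer end. Over all 83 the distance from the summit to that end, counted as negative outside the domain, had a median of 4170 bp. In both marks 26 of 88 did (29.5%, 20.3 to 40.2%), and over all 88 the median distance was 151.5 bp. A summit in a domain under 2 kb cannot lie over 1 kb from its nearer end. The domain was under 2 kb for 41 of the 88 sites in both marks and 7 of the 83 in H3K27me3 alone. In domains of at least 2 kb the central 50% held 38 of 76 summits in H3K27me3 alone (50%, 38.3 to 61.7%). In both marks it held 14 of 47 (29.8%, 17.3 to 44.9%). In gaps the median distance to the domain end was 4661 bp, and gaps cannot lie at domain ends, which are H3K27me3 peaks. In domains of at least 20 kb the central 50% held 62 of 102 gap summits (60.8%, 50.6 to 70.3%), 14 of 37 in H3K27me3 alone (37.8%, 22.5 to 55.2%) and 7 of 20 in both marks (35%, 15.4 to 59.2%). Flank summits lay outside by definition, at a median of 1969.5 bp beyond the domain.

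SOX10 summits were densest not under H3K27me3 peaks and not far from them, but 500 bp to 2 kb away. Over bases more than 2 kb from H3K27ac, there were 1.93 summits per Mb inside H3K27me3 peaks (1.48 to 2.47, 62 summits) and 3.34 (2.68 to 4.13) up to 500 bp away. The density was 6.96 (5.80 to 8.28) between 500 bp and 1 kb and 7.38 (6.43 to 8.44) between 1 and 2 kb, then 2.76 (2.38 to 3.19) between 2 and 5 kb. Beyond 5 kb it was 1.59 (1.503 to 1.68, 1246 summits). Under this H3K27ac limit the density from 500 bp to 2 kb was 4.54 times that beyond 5 kb. This ratio was 9.65 for SOX10 peaks with a fold of at least 5, 3.398 with H3K27me3 peaks of −log10 q of at least 3 and 3.75 with H3K27ac peaks of that −log10 q. The densities describe the lists from which the sites were chosen and are not a test.

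**Figure D2:**
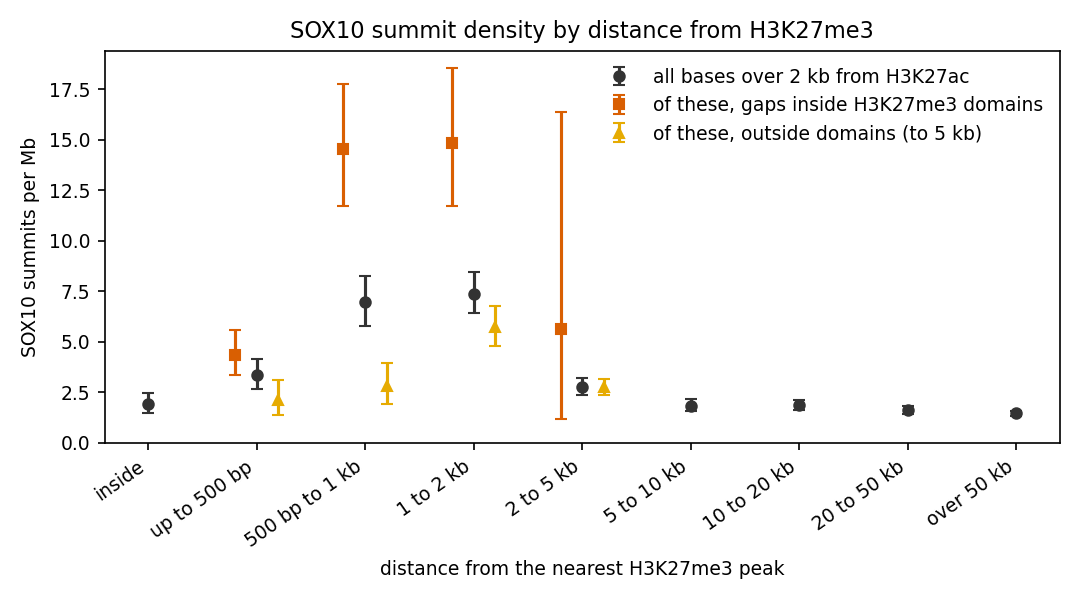
SOX10 summits per Mb (vertical axis) by distance from the nearest H3K27me3 peak (horizontal axis), over bases more than 2 kb from H3K27ac, with exact 95% Poisson intervals as bars. Black circles show all such bases, with the highest values of 6.96 and 7.38 between 500 bp and 2 kb, and orange squares and yellow triangles divide the bases up to 5 kb into gaps inside domains and bases outside domains.

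Over the same bases, more than 2 kb from H3K27ac, summits were denser in the gaps inside domains than at the same distance outside domains. Between 500 bp and 1 kb from an H3K27me3 peak, gap bases held 14.5 summits per Mb (11.7 to 17.8, 94 summits) against 2.80 (1.93 to 3.93, 33 summits) outside domains. Between 1 and 2 kb the values were 14.9 (11.7 to 18.5, 78 summits) in gaps and 5.72 (4.80 to 6.77, 135 summits) outside domains. Outside domains it was 2.12 (1.37 to 3.12) up to 500 bp and 2.74 (2.35 to 3.17) between 2 and 5 kb. There the density was thus also highest between 1 and 2 kb, but between 500 bp and 1 kb it was close to that between 2 and 5 kb.

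Gaps and peaks within domains were also compared over bases more than 2 kb from H3K27ac. In domains of at least 20 kb, gaps held 11.1 summits per Mb (9.07 to 13.4, 106 summits in 9.57 Mb). H3K27me3 peaks there held 2.11 (1.40 to 3.04, 28 summits in 13.3 Mb), a ratio of 5.26. In domains of 2 to 20 kb the values were 7.89 (6.59 to 9.37) in gaps and 1.88 (1.26 to 2.70) under peaks. Without the H3K27ac limit, domains of at least 20 kb held 14.6 in gaps and 2.85 under peaks. Domains of 2 to 20 kb then held 9.83 and 2.95. With the H3K27ac limit, the ratio in long domains was 9.03 with SOX10 peaks of −log10 q of at least 5. It was 2.57 with only H3K27me3 peaks of −log10 q of at least 3, from 11 and 19 summits.

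A gap that held a SOX10 summit had a median length of 2565 bp, against 984 bp over all 21584 gaps and 2363 bp when each gap counts by its bases. Density by gap length was again taken over bases more than 2 kb from H3K27ac. It was 3.23 summits per Mb (1.88 to 5.18) in gaps under 1 kb and 10.5 (8.12 to 13.5) in gaps of 1 to 2 kb. In gaps of 2 to 3 kb it was 12.5 (9.67 to 15.8), and in gaps of 3 to 5 kb 9.13 (7.33 to 11.2). Within its gap the summit lay in the central 50% in 172 of 227 cases (75.8%, 69.7 to 81.2%). A SOX10 peak that reaches into the next H3K27me3 peak is counted as overlapping, which removes summits from the ends of gaps.

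Local background moved with placement. Its median was 4.58 fragments at sites in H3K27me3 alone, 5.99 in both marks, 9.55 in gaps and 7.99 on flanks, against 8.98 at the other 5811 SOX10 peaks. The lowest background in the list, 3.77 fragments, applied to 17 of 83 sites in H3K27me3 alone (20.5%, 12.4 to 30.8%) and to 1 of 227 in gaps (0.441%, 0.0112 to 2.43%), against 94 of 5811 other peaks (1.62%, 1.31 to 1.98%). The gap median was thus above that of other peaks and the median of H3K27me3 alone was the lowest, while the upper quartile of gaps, 11.2 fragments, was below the 11.98 of other peaks. The part of background in the density of summits under peaks and in gaps was not tested, and the background of bases without a SOX10 peak is not known from these lists.

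**Figure D3:**
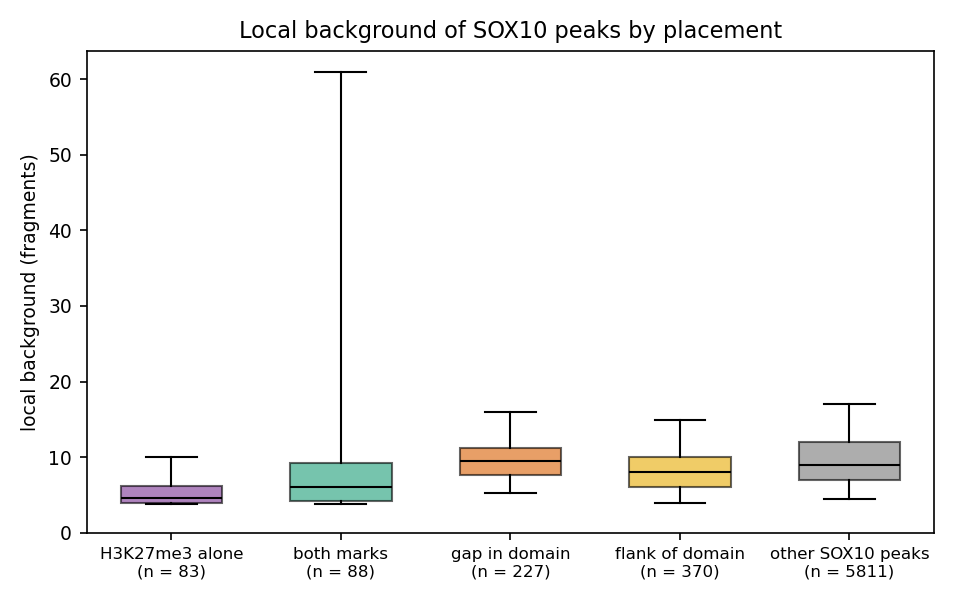
Local background of SOX10 peaks (vertical axis, fragments) by placement (horizontal axis). Boxes span the quartiles, lines mark medians and whiskers run from the 5th to the 95th percentile. Medians are 4.58 in H3K27me3 alone, 5.99 in both marks, 9.55 in gaps, 7.99 on flanks and 8.98 at other SOX10 peaks, and the long whisker of both marks comes from sites of very high background.

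H3K27ac was present at 88 of the 171 sites that overlapped H3K27me3 (51.5%, 43.7 to 59.2%), against 58.0% of all SOX10 peaks (56.8 to 59.2%, 3815 of 6579). At the 88 sites in both marks the acetylated region had a median fold of 9.60 (interquartile range 5.19 to 14.6), against 6.59 (4.70 to 9.44) at the 3727 other SOX10 peaks in H3K27ac. It was also narrower, with a median width of 1104 bp against 2411 bp. The interquartile ranges overlapped for both measures. On scaffolds spanning at least 1 Mb, which carried 42 of the 88, the median fold was 10.0 against 6.42 and the width 1104 bp against 2359 bp. The SOX10 local background was lower at these sites, at a median of 5.99 fragments against 9.81, and its part in the difference was not tested.

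The H3K27ac region had the higher fold of the pair of marks at 68 of the 88 sites (77.3%, 67.1 to 85.5%) and the greater width at 59 (67.0%, 56.2 to 76.7%). The H3K27me3 region there had a median fold of 4.39 and a median width of 432 bp. Over the whole lists, H3K27ac peaks also had the higher median fold, 3.82 against 3.27, and median width, 721 against 488 bp. The marks come from different libraries, so their folds are not on one scale. The summit itself lay inside both regions at 63 of 88 sites (71.6%, 61.0 to 80.7%), inside H3K27ac alone at 20, inside H3K27me3 alone at 3 and inside neither at 2. Both marks in a cell population can come from different cells or alleles, which these lists cannot tell apart.

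Medians at sites in both marks varied with domain length, but interquartile ranges of fold and of H3K27ac width overlapped. Where the H3K27me3 domain was under 500 bp (31 sites), the H3K27ac region had a median fold of 10.2 (7.32 to 16.8). Its median width was 1135 bp (586.5 to 2029). Where the domain was at least 20 kb (20 sites), the values were 5.77 (4.81 to 13.3) and 820.5 bp (431.5 to 1557). The H3K27me3 region had a median fold of 3.92 (3.61 to 5.04) in the short domains and 6.05 (4.22 to 8.91) in the long ones. Its median width was 298 and 2463.5 bp, and a domain under 500 bp cannot hold a peak of 500 bp or more.

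Elsewhere the sites were far from acetylation. For summits in H3K27me3 alone the distance to H3K27ac had a median of 20319 bp over the 79 sites with an H3K27ac peak on their scaffold, and 9 of 83 (10.8%, 5.08 to 19.6%) lay within 2 kb of one. The median distance was 43419 bp for gaps and 36219.5 bp for flanks, where the rule itself required over 2 kb. These medians cover the 226 and 368 sites with an H3K27ac peak on their scaffold. Of the 1246 other SOX10 peaks far from both marks, 1212 had such a peak and lay a median of 19294.5 bp from H3K27ac. This was a shorter distance than at sites in gaps and on flanks under the same 2 kb requirement. The H3K27me3 peak at sites of H3K27me3 alone had a median fold of 5.02 and a width of 2578 bp, against 3.27 and 488 bp over all H3K27me3 peaks. A wider peak offers more bases to overlap, so no preference for wide or strong H3K27me3 peaks was read from these values.

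SOX10 strength was compared at like local background, because a q-value threshold admits only high folds where background is low. Peaks were divided into 7 classes of background, and each site was set against the median fold of the other 5811 SOX10 peaks in its class. Of the 768 members, 412 lay above that median (53.6%, 50.05 to 57.2%), against 49.4% of the other peaks themselves, where ties keep the share from 50%. The placements differed around this value.

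The share was highest in gaps and lowest in H3K27me3 alone, where the interval reaches the 49.4% of other peaks. Of those 5811 other peaks, 3727 were in H3K27ac. In gaps 139 of 227 lay above the class median (61.2%, 54.6 to 67.6%), on flanks 195 of 370 (52.7%, 47.5 to 57.9%), in both marks 46 of 88 (52.3%, 41.4 to 63.0%) and in H3K27me3 alone 32 of 83 (38.6%, 28.1 to 49.9%). The excess in gaps shrank or was absent when gap sites and other peaks were both limited to stronger SOX10 peaks. With a −log10 q of at least 5, the shares were 53.2% of 156 in gaps (45.1 to 61.2%) and 42.4% of 33 in H3K27me3 alone (25.5 to 60.8%). With a fold of at least 5 they were 47.2% of 36 (30.4 to 64.5%) and 40% of 10 (12.2 to 73.8%). Each limit removes weaker peaks from both sides and resets the class median. These shares therefore do not measure how many sites pass the limit. Without such a limit, the other peaks far from both marks stood at 45.7% (42.95 to 48.6%, 570 of 1246) and those in H3K27ac at 50.4% (48.8 to 52.0%, 1878 of 3727). The interval of H3K27me3 alone also holds the 45.7% of far peaks.

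By class, the median fold of gap sites was 3.42 against 3.01 for other peaks at a background of 10 to 15 fragments (66 and 1764 peaks) and 3.61 against 3.31 at 8 to 10 (62 and 1232 peaks). At 6 to 8 it was 3.71 against 3.51 (47 and 1236 peaks), and at 15 and over the order turned, with 2.38 against 2.60 (20 and 518 peaks). For H3K27me3 alone the medians were 3.98 against 4.19 under 4 fragments (30 and 167 peaks), 3.86 against 3.96 at 4 to 5 (19 and 419 peaks) and 3.08 against 3.62 at 5 to 6 (12 and 475 peaks). At 6 to 8 they stood the other way, at 3.90 against 3.51, from 13 sites.

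**Figure D4:**
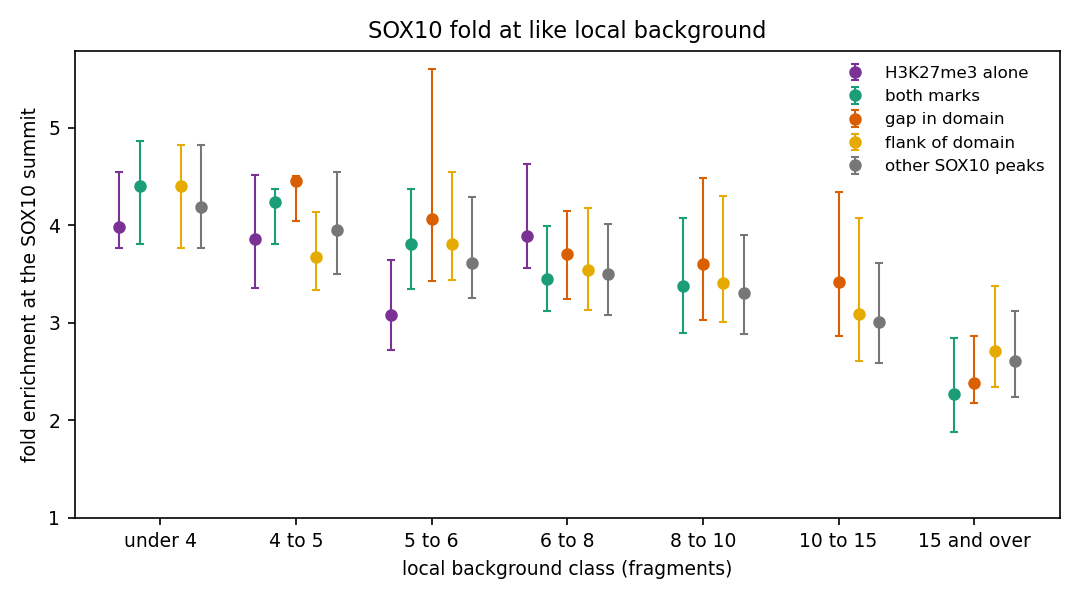
Fold enrichment at the SOX10 summit (vertical axis) by class of local background in fragments (horizontal axis). Points are medians and bars the interquartile range, for each placement and for other SOX10 peaks, in classes with at least 5 peaks. Gap sites lie above other peaks in the classes from 4 to 15 fragments, and sites in H3K27me3 alone lie below them under 6 fragments.

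The share of strong peaks was also highest in gaps. A fold of at least 5 was reached by 107 of 768 members (13.9%, 11.6 to 16.6%), against 8.60% of all SOX10 peaks. Given the background classes of the members, the other peaks reached it in 9.56%. In gaps the share was 15.9% (11.4 to 21.3%, 36 of 227) against 7.38% of other peaks reweighted to the same background, and on flanks 13.8% (10.4 to 17.7%, 51 of 370) against 8.999%. In H3K27me3 alone it was 12.05% (5.93 to 21.0%, 10 of 83) against 15.4%, and in both marks 11.4% (5.59 to 19.9%, 10 of 88) against 12.04%, each within its interval. A −log10 q of at least 5 was reached by 461 of 768 members (60.03%, 56.5 to 63.5%), against 56.5% of all SOX10 peaks.

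Among peaks outside acetylated chromatin, the sites beside H3K27me3 had a higher median fold than those far from it. Median folds by background class, averaged by the class shares of the 597 sites beside the mark, gave 3.499 for those sites and 3.29 for the 1246 far peaks. A fold of at least 5 was reached by 14.6% of the sites (11.8 to 17.7%, 87 of 597) and by 6.07% of the far peaks at like background. Sites in H3K27me3 alone stood close to far peaks at like background, with averaged class medians of 3.68 against 3.71. There a fold of at least 5 was reached by 12.05% of the sites in H3K27me3 alone against 10.5% of the far peaks. SOX10 peaks were somewhat wider in gaps, with a median of 227 bp (interquartile range 164.5 to 299.5). The median was 183 bp at far peaks, 179 bp in H3K27me3 alone, 201.5 bp in both marks and 200.5 bp on flanks. At other peaks in H3K27ac it was 205 bp (159 to 282), so these ranges overlapped. Width was not compared at like background.

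**Figure D5:**
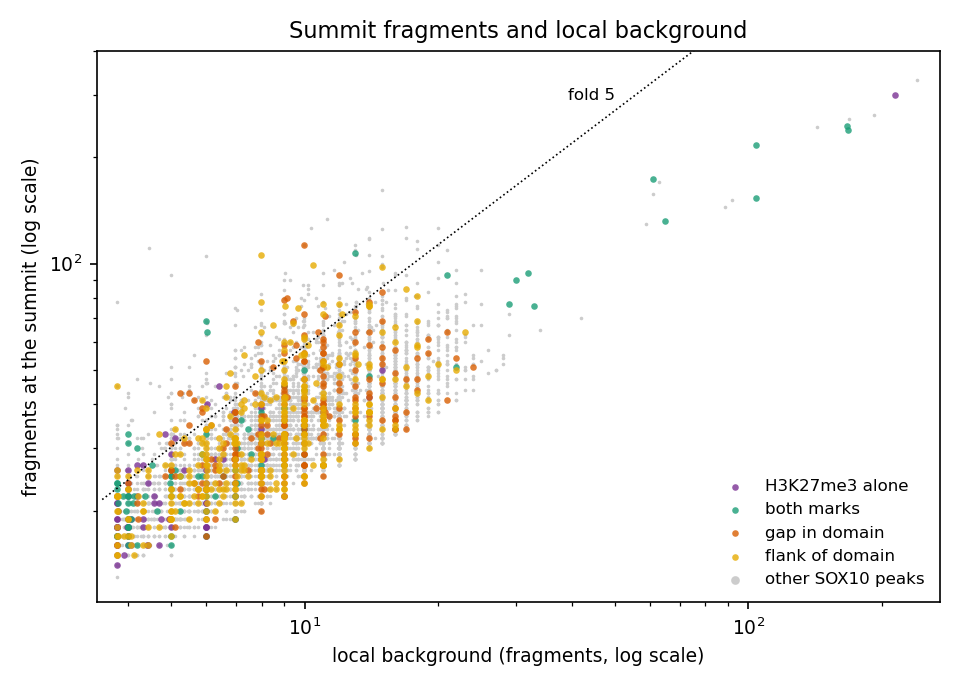
Fragments at the SOX10 summit (vertical axis, log scale) against local background in fragments (horizontal axis, log scale), 1 point per SOX10 peak, with members coloured by placement, other SOX10 peaks in grey and a fold of 5 dotted. Sites in H3K27me3 alone gather at the lowest backgrounds, and the members with the most fragments lie at backgrounds of 30 and above, well under the dotted line.

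The 12 members of highest fold held 5 flank sites, 4 gap sites, 3 in both marks and 0 in H3K27me3 alone. All 768 members divide into 370, 227, 88 and 83 in the same order. With 12 sites, no lack in any placement was read from these counts. The strongest of the 12 lay at 9274051 to 9274436 of AKCR02000019.1 with a fold of 11.9, from 106 fragments (86.8 to 128) over a background of 7.99. It exceeded all other SOX10 peaks of its background class that are not members, and stood 2755 bp from an isolated H3K27me3 peak of 232 bp and 14.2 kb from H3K27ac. The second, at 4123096 to 4123450 of the same scaffold, had a fold of 10.4 from 113 fragments. It lay in a gap of a 17.7 kb domain at 4112970 to 4130631, 422 bp from the nearest H3K27me3 peak and 16.9 kb from H3K27ac.

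Further strong gap sites were remote from acetylation. A gap site at 2328118 to 2328401 of AKCR02000081.1 had a fold of 8.01 from 79 fragments, 12.6 kb inside a 37.8 kb domain of 17 H3K27me3 peaks and 172 kb from H3K27ac. Another, at 1114085 to 1114468 of AKCR02000062.1, had a fold of 7.98 from 80 fragments in a 22.4 kb domain of 14 peaks, 122 kb from H3K27ac. One more, at 30586482 to 30586710 of AKCR02000002.1, had a fold of 7.73 in a 14.0 kb domain, 154 kb from H3K27ac.

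The strong flank sites stood beside domains of 232 to 5683 bp. Those at 8822132 to 8822475 of AKCR02000024.1, 7559189 to 7559657 of AKCR02000032.1 and 1002265 to 1002575 of AKCR02000095.1 had folds of 8.80, 8.73 and 7.68, and lay 1080, 653 and 1177 bp from domains of 5.68, 5.44 and 3.15 kb. On AKCR02000046.1 the flank site at 4871975 to 4872185 held 45 fragments and a fold of 9.64. It had the lowest background of the list and stood 2959 bp from a single H3K27me3 peak of 352 bp.

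The 3 strong sites in both marks touched an H3K27me3 peak under 300 bp beside strong acetylation. The site at 132786 to 133030 of AKCR02000152.1 had a SOX10 fold of 10.0, an H3K27ac fold of 13.6 and an H3K27me3 peak of 265 bp whose nearest base was 98 bp from the summit. At 804895 to 805257 of AKCR02000123.1 the folds were 9.27 for SOX10 and 16.8 for H3K27ac, with an H3K27me3 peak of 298 bp at 82 bp from the summit. At 750972 to 751436 of AKCR02000122.1 they were 7.73 and 8.997, and the summit lay on the first base of an H3K27me3 peak of 232 bp.

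The strongest site in H3K27me3 alone, at 4146460 to 4146750 of AKCR02000020.1, had a fold of 6.21 from 45 fragments (32.8 to 60.2) over a background of 6.41. It lay under a 14971 bp H3K27me3 peak of fold 11.5, 14.5 kb inside an 86.6 kb domain and 63.1 kb from H3K27ac. It was picked after its values were seen, as the highest fold of its placement.

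The members with the most fragments were of another kind. The 6 highest held 153 to 300 fragments over backgrounds of 60.9 to 214, with folds of 1.40 to 2.83, and 4 of them lay on scaffolds spanning 0.437 to 10.2 kb. The highest, at 3721609 to 3721771 of AKCR02000061.1, had 300 fragments over 214 and a fold of 1.40. Backgrounds of 30 or more occurred at 9 of the 171 sites that overlapped H3K27me3 (5.26%, 2.43 to 9.76%) and at 0 of the 597 beside it, against 11 of 5811 other peaks (0.189%, 0.0945 to 0.338%). Without them, 759 members were left and the share above the class median was 53.9%.

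The 10 members in the longest domains included none of the 12 strongest. As 10 of 768 members, they are too few for a lack of strong sites to be read from this. In or beside domains of at least 20 kb, 35 of 177 members (19.8%, 14.2 to 26.4%) reached a fold of at least 5. The share was 12.5% (9.26 to 16.5%) for domains of 2 to 20 kb and 11.7% (7.89 to 16.4%) for domains under 2 kb, with overlapping intervals. At like background, the shares above the class median were 57.1% (49.4 to 64.5%), 52.7% (47.3 to 58.0%) and 52.5% (46.0 to 59.0%) in the same order. Of the 177, 102 were gap sites, so length and placement were not separated. The 402.8 kb domain at 100801 to 503624 of AKCR02000141.1 held 2 members. One, in both marks at 134966 to 135108, had a fold of 4.61 from 22 fragments in an H3K27ac region of fold 13.5. The other, in H3K27me3 alone at 307439 to 307685, had a fold of 5.84 from 40 fragments, lay 196 kb from the nearer end and 1336 bp from H3K27ac, and was higher than 96.0% of the other SOX10 peaks of its background class.

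In the 254.6 kb domain at 8949530 to 9204097 of AKCR02000027.1 a gap site at 9150335 to 9150479 had a fold of 3.01, above 21.2% of other peaks of its class. The 205.1 kb domain of AKCR02000044.1 held a site of fold 3.15 at 157178 to 157375, above 17.7%. The 202.9 kb domain at 510068 to 712934 of AKCR02000122.1 held a site in H3K27me3 alone with a fold of 3.98 from 18 fragments and a gap site, at 595419 to 595640, with a fold of 4.34 from 51 fragments. The gap site exceeded 88.2% of its class and the other 31.1%. The next domains with a member, of 166.2, 161.1 and 144.5 kb, held 4 members with folds of 3.19 to 4.19, each above 31.1 to 44.9% of its class.

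Members rarely shared a domain, and with 15208 domains on offer no spacing of sites was read from this. The 768 sites belonged to 722 domains, of which 678 had 1 member, 42 had 2 and 2 had 3, and 151 of the 648 domains of at least 20 kb had any. One domain of 3, of 82.0 kb at 12545513 to 12627550 of AKCR02000019.1, held gap sites at 12586693 to 12586968 and 12589824 to 12590316, with folds of 3.51 and 4.30. Its member in H3K27me3 alone, at 12625586 to 12625730, had a fold of 3.36. The other, of 130.5 kb at 809108 to 939634 of AKCR02000122.1, held folds of 3.14, 2.28 and 3.81. Its gap site of 2.28 was not above any other SOX10 peak of its background class that is not a member.

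Members lay on 191 of the 2200 scaffolds with a peak of any list. On scaffolds spanning at least 1 Mb lay 57.9% of the sites that overlapped H3K27me3 (50.1 to 65.4%, 99 of 171) and 93.1% of those beside it (90.8 to 95.03%, 556 of 597), against 88.3% of the other SOX10 peaks (87.4 to 89.1%). In both marks the share was 47.7% (37.0 to 58.6%), and 14 of these 88 lay on scaffolds spanning under 100 kb. Confined to scaffolds of at least 1 Mb, the share above the class median was 61.8% in gaps and 36.8% in H3K27me3 alone, and the share of overlapping sites that also touched H3K27ac was 42.4%, against 51.5% on all scaffolds.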

How the data were processed

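Chromatin immunoprecipitation libraries were read as single 75 nt ends, per the labels' protocols. Tools listed in the submitters' processing notes, with no role or settings, were MACS3 3.0.0, SAMtools 1.16, Bowtie2 2.2.9 and bcl2fastq 2.20. No source used here gives the control library or names the genome build. Scaffold names are of the AKCR02 series, and coordinates count from 1. Each peak has a score, deposited as a whole number and not used further. It has a fold enrichment, a ratio the authors deposited for the SOX10 summit and for the whole region of a histone peak, and −log10 values that the authors deposited for both p-value and q-value.

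Fragments n and background b follow from fold = (n + 1) / (b + 1) and a Poisson tail p. For each of the 6579 peaks a whole n came within 0.001 of the deposited −log10 p (largest error 0.000645). The recovery was tested on simulated data. Overlap means at least 1 shared base. Scaffold span is the highest peak end of any list. Background classes divide at 4, 5, 6, 8, 10 and 15 fragments. A reweighted value averages the class values of the other peaks by the members' class shares. An averaged class median of the sites themselves uses the same shares. Total reads are unknown, and depth enters only through the recovered fragments. Python 3.11.15, numpy 2.4.6, pandas 2.3.3 and scipy 1.17.1 were used.

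The members and the limits were chosen with earlier results of these data known. Regions were named by rule: the 12 members of highest fold, the 6 with most fragments, the 10 in the longest domains, domains with 3 members, and sites next to each limit. Alternatives were stricter thresholds, summit overlap, other distances, merging gaps and background classes, and scaffolds of at least 1 Mb. Genes and motifs were not analysed here, as planned only with a genome of this build.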

Additional observations from a re-analysis of the deposited data

How the results depend on the processing

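No replicate could be left out. No paired analysis was possible because only 1 library exists for a target. Of 93 recalculated values of 9 results, 70 stayed within 1.5 times the count or within the interval first given. The setting without backgrounds of 30 or more, and all settings for the density ratios and for gap sites and H3K27me3 alone taken by themselves, were chosen after seeing the data. The number of members was 328 with H3K27me3 at −log10 q of at least 3, 461 with SOX10 at −log10 q of at least 5 and 107 with SOX10 fold of at least 5. The share in or beside domains of at least 20 kb, 23.0%, was 14.9% with strict H3K27me3, 32.7% with SOX10 fold of at least 5, 28.8% and 19.9% with beside as 2 and 10 kb, and 2.86% and 46.5% with merging gaps of 1 and 12 kb. The share of overlapping sites at a domain end or outside, 48.5%, was 67.8% with gaps of 1 kb. The share of them in H3K27ac, 51.5%, was 61.2% with SOX10 at −log10 q of at least 5 and 42.4% on scaffolds of at least 1 Mb. Above the class median, the share of members was 47.7% with SOX10 fold of at least 5 and 52.5 to 55.3% otherwise. For gap sites it was 53.2% and 47.2% with SOX10 at −log10 q and at fold of at least 5, 73.3% with merging gaps of 1 kb (15 sites), and 57.7 to 66.7% otherwise. For H3K27me3 alone it ran from 36.4 to 44.6% over 13 alternatives, the highest against peaks outside H3K27ac. Density ratios were taken over bases more than 2 kb from H3K27ac. The density ratio of gaps to peaks in long domains was 9.03 and 8.69 with the 2 SOX10 thresholds and 2.57 with strict H3K27me3. The ratio of 500 bp to 2 kb over beyond 5 kb was 5.92 and 9.65 with the same SOX10 thresholds, 3.398 with strict H3K27me3 and 3.75 with strict H3K27ac. A threshold on SOX10 also removes the weaker of the peaks compared, and otherwise the cause was not tested. Depth limits the list: the list has no summit under 13 fragments, and more are needed where background is higher.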
